A study of Mus musculus with 18 samples.

Results

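RNA of 6 spontaneous lung tumours was compared with RNA of 6 control lungs in B6C3F1/N mice, the F1 hybrids that toxicology programmes commonly use for cancer bioassays. The 12 arrays were chosen by their group labels, cobalt_Spontaneous Tumor and cobalt_Vehicle, from a series of 18 arrays whose other 6 hold lung tumours of mice that inhaled cobalt metal particles. Per the labels' protocols, mice were 5 to 6 weeks old when the study began and inhaled air with 0 to 5 mg/m3 of cobalt metal for 6 hours a day, 5 days a week, for up to 105 weeks. The labels name the control lungs vehicle controls and the tumours spontaneous, and they name no engineered allele in any group. Tumours were dissected free of the lung around them and frozen, and the way the piece of control lung was taken is not given in the sources used here. Neither the concentration, nor sex and age at sampling are given for single arrays, nor whether each array of a group is another mouse, and p-values therefore reflect array-to-array spread that may in part be technical. The study's stated comparison of tumour with vehicle control asks which RNAs differ between tumours that arose without cobalt and normal lung.

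Lung tumours of ageing mice arise mostly from epithelial cells of the alveoli and terminal airways, and many keep features of the alveolar type 2 cell that makes surfactant. Normal lung around them consists in large part of capillary endothelium, thin alveolar type 1 cells, fibroblasts, muscle and macrophages. An array of a tissue piece reads the RNA of all its cells together, so fewer cells of a type and less RNA per cell cannot be told apart.

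Values are log2 RMA expression values, in which a difference of 1 is a 2-fold difference, and array medians lay between 6.32 and 6.45. Each gene was tested with limma over all 18193 genes with Benjamini-Hochberg adjustment, and a gene is called higher or lower where its adjusted p was under 0.05. The tumours parted from the control lungs on a first principal component with 52.8% of the variance, and on the next one (12.6%) spontaneous tumours 2 and 6 lay at 62.1 and 53.5 and the other 4 at -27.7 to -18.1. The free-text description of control lung 6 names a spontaneous tumour, but control lung is what its title, source and group say, and its mean correlation with the other controls (r = 0.989) was higher than with the tumours (r = 0.935). The RNAs that tell the sexes apart differed within the tumour group and between tumours and control lungs. Xist, transcribed from the inactive X chromosome of females, lay at 12.15 to 12.72 in the 6 control lungs, at 12.78 and 12.40 in spontaneous tumours 4 and 6, and at 6.51, 5.95, 6.78 and 6.53 in tumours 1, 2, 3 and 5. The mean level of 3 Y-linked RNAs was high in those 4 tumours. Sex is thus partly confounded with the comparison, since all 6 control lungs had high Xist. Of the spontaneous tumours, the arrays with Xist above 10 hold only 4 and 6. Where a call described here ended with the Y-linked level as a covariate or in those arrays, a value from such a fit is given. The surfactant protein RNA Sftpc, a defining marker of lung, lay at 14.83 to 14.95 (median 14.93) in control lung and 14.28 to 15.26 (median 15.20) in the tumours, and the 4 measured markers of thyroid and thymus were not called in either direction, with log2 differences of -0.05 to 0.09.

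Of 18193 genes, 2975 were higher (16.4%) and 3320 lower (18.2%) in the spontaneous tumours, which makes 34.6% called. Every tumour lay beyond every control lung in 3847 genes (21.1%). At least 4-fold differences were found for 144 of the higher and 436 of the lower genes, and at least 16-fold differences for 10 and 25. For 8614 genes (47.3%) the 95% confidence interval of the difference lay within 0.5 log2 on either side of 0. The SD among the 6 tumours was larger than that among the 6 control lungs for 68.0% of genes, with medians of 0.22 and 0.16 log2. Where a gene has several probe sets, the one with the highest mean level stands for it, and with the mean of all of them instead the differences of some called genes named here were over 1.5 times smaller, among them Top2a (0.70 instead of 1.97 log2), Psrc1 (1.69 instead of 3.65), Afp (1.64 instead of 3.40) and Epcam (1.23 instead of 2.22), with the calls kept.

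Several genes with large differences are known for functions outside the adult alveolus. Psrc1, which encodes a spindle protein, rose 12.5-fold, the EGF family ligand Ereg 11-fold, the fetal serum protein Afp 10.6-fold and the adhesion molecule Mpzl2 10.1-fold (adjusted p = 1.37e-07). Tnfsf9, the ligand of a T cell costimulatory receptor, was 9.98-fold higher, and Rnf128, a ubiquitin ligase, lay at 8.04 to 8.44 (median 8.20) in control lung and 10.31 to 11.26 (median 10.94) in the tumours. No tumour came near a control lung in Rnf128. The epithelial anchoring protein Lad1 rose 9.07-fold, the lectin receptor Clec4n of macrophages 7.89-fold and the Golgi protein Golm1 6.51-fold. Among the falls, Npr3, the clearance receptor of natriuretic peptides, lay at 10.34 to 11.80 (median 11.03) in control lung and 5.70 to 7.74 (median 6.23) in the tumours. The 2 ranges were far apart, and the difference was 25.8-fold (adjusted p = 1.90e-06). Scube2 was 22.6-fold lower, the cysteine dioxygenase Cdo1 16-fold, the integrin Itga8 of fibroblasts and smooth muscle 16.3-fold and the scaffold protein Akap12 15.7-fold. Slc7a10, an amino acid exchanger, and Csrp3, a protein of striated muscle, had small p-values among the falls, at 13.5-fold and 6.54-fold lower (adjusted p = 1.04e-08 and 1.28e-08).

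**Figure D1:**
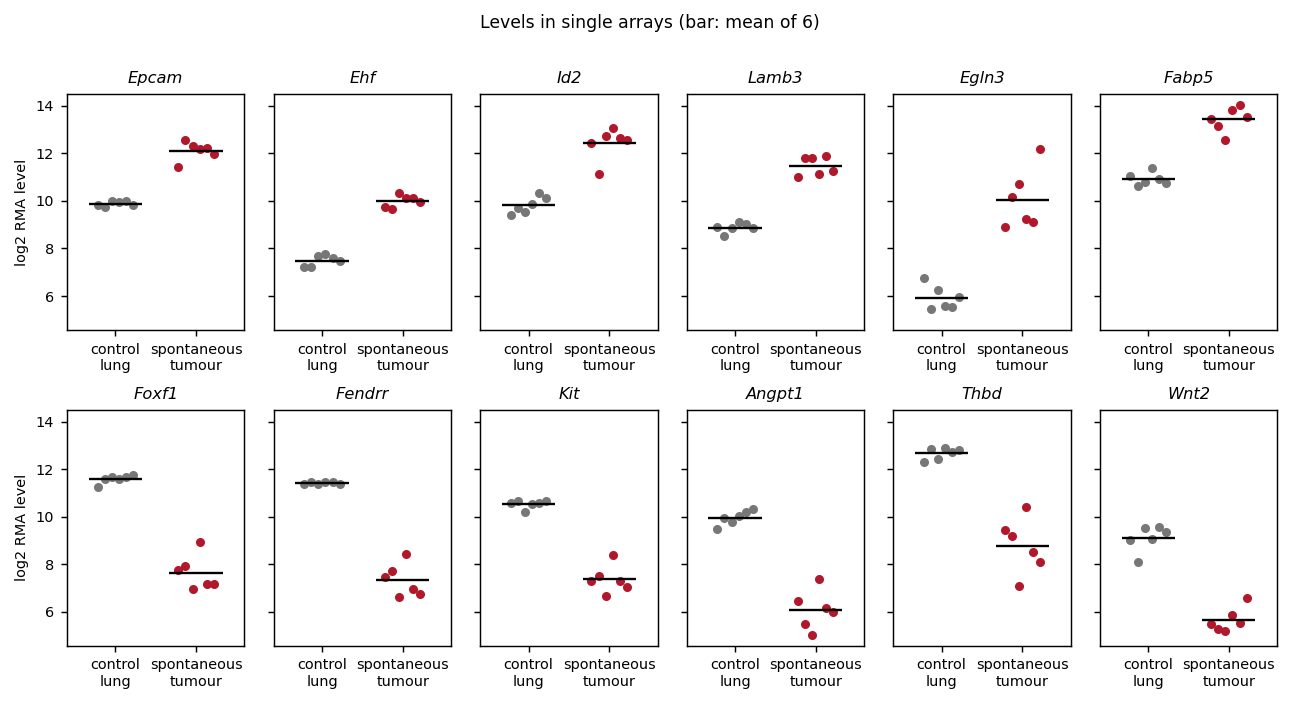
Log2 RMA level (vertical axis) of 12 genes in each of 6 control lungs (grey) and 6 spontaneous tumours (red), 1 point per array, with a bar at the group mean. The upper 6 genes were called higher and the lower 6 lower in tumours, and in each of the 12 every tumour lies beyond every control lung.

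Junction genes rose more often than they fell. Of 33 measured junction genes 13 rose and 6 fell, with a median log2 difference of 0.28, against -0.03 over all genes. The median of the junction genes was 0.12 without tumour 5, 0.07 with the Y-linked covariate and 0.03 in the arrays with Xist above 10. The claudins alone, 5 higher and 3 lower of 18, had a median of -0.02, and their log2 differences ran from -3.94 to 5.87. Epcam, the epithelial adhesion molecule, lay at 9.75 to 9.98 (median 9.90) in control lung and 11.43 to 12.56 (median 12.19) in the tumours. The groups did not overlap, and Epcam was 4.65-fold higher (adjusted p = 3.17e-06). The claudins Cldn7 and Cldn3, which seal epithelial tight junctions, rose 2.58-fold and 2.5-fold, E-cadherin (Cdh1) rose 1.77-fold, and the tricellular junction proteins Marveld3 and Marveld2 rose 2.95-fold and 1.92-fold. Cldn10 was 4.77-fold lower, and the endothelial cadherin Cdh5 6.49-fold lower. Cldn18, the main claudin of alveolar epithelium, was not called (log2 difference -0.09, 95% interval -0.61 to 0.42). Cldn4, which is induced in injured alveolar epithelium, ranged from 6.27 to 10.74 across the tumours, above the 5.63 to 6.16 of the control lungs. Its call ended with the Y-linked covariate (adjusted p = 0.112) and without tumours 2 and 6 (0.0927).

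Of 6 keratins of simple epithelia 3 rose and none fell, with a median log2 difference of 1.91, or 0.60 without tumours 2 and 6. Krt18 and its partner Krt8, the first filament pair of simple epithelium, rose 5.29-fold and 2.86-fold, Krt8 by 0.97 instead of 1.52 log2 without tumours 2 and 6, and Krt23 rose 5.08-fold. Krt18 lay at 10.25 to 10.51 (median 10.30) in control lung and 11.57 to 13.86 (median 12.46) in the tumours, so the groups did not overlap. Of 9 basal or stratified keratins none was called higher and Krt80 was 7.29-fold lower. Krt20, a keratin of gut epithelium, lay at 11.16 and 11.26 in tumours 2 and 6 and at 4.76 to 5.09 in the other 4, against 4.55 to 5.04 in control lung, and it was not called (adjusted p = 0.114). Krt19 had the same pattern, at 13.32 and 13.83 in those 2 tumours and 10.33 to 11.33 in the others (adjusted p = 0.288).

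Transcription factors of lung epithelium moved in both directions, with 9 of 24 higher and 7 lower, or 4 lower in the arrays with Xist above 10. Id2, which marks the distal tip of the growing lung bud, lay at 9.40 to 10.32 (median 9.79) in control lung and 11.15 to 13.06 (median 12.60) in the tumours. It rose 6.07-fold with no overlap (adjusted p = 3.17e-06). Sox9, a second factor of the distal bud tip, rose 4.99-fold, the epithelial ETS factors Ehf and Elf3 rose 5.63-fold and 2.16-fold, and Cebpa, which acts in type 2 cell maturation, rose 2.92-fold. Hopx, of alveolar type 1 cells, was 5.04-fold lower. Foxj1, which drives motile cilia, was 3.32-fold lower, and Myb, which acts early in multiciliated cells and in blood progenitors, 9.87-fold lower. The lineage factor Nkx2-1 was not called, with a 95% interval of -0.15 to 0.90 log2, but was called higher without tumours 2 and 6 (adjusted p = 0.00572). Elf5 was called higher (3.83-fold), but not with the Y-linked covariate (adjusted p = 0.0738) or by the exact permutation test (0.0768), and Nfib was called lower (2.11-fold) but not in the arrays with Xist above 10 (0.17). Of 9 factors of gut and stomach, Foxa3 alone passed (2.42-fold higher), and not with the covariate (0.125) or without tumours 2 and 6 (0.0526). Mucins and goblet or gastric genes had 9 risers and 2 fallers among 29 (37.9% called, against 34.6% of all genes), and 5 risers with the covariate. The membrane mucins Muc1 and Muc20 rose 2.45-fold and 3.82-fold, and Agr3, which is known from ciliated cells, was 7.69-fold lower.

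Surfactant and other type 2 cell genes differed between single tumours. Of 13 markers 5 were called higher, and 0 with the Y-linked covariate or in arrays with Xist above 10. Without tumours 2 and 6 the number was 11. The median difference from the control mean was -0.42 in tumour 2 and -0.50 in tumour 6, and 0.81, 0.80, 0.90 and 1.04 in tumours 5, 4, 3 and 1. Markers of airway secretory (club) cells moved in both directions, with 2 higher and 4 lower of 11 (54.5% called, against 34.6% of all genes). Their log2 differences ran from -3.15 to 6.09, the latter in Bpifa1. The airway secretory protein Scgb3a2 lay at 14.25 to 14.41 (median 14.35) in control lung and 8.15 to 12.67 (median 11.94) in the tumours and was 8.85-fold lower (adjusted p = 0.0154), though not with the Y-linked covariate (adjusted p = 0.196). All 11 ciliated cell markers measured fell, and each was lower in every tumour than in every control lung.

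EGF family ligands bind ERBB receptors at the cell surface, these switch on RAS and ERK, and ERK induces its own inhibitors of the Sprouty, Spred and DUSP families. Of 26 genes of this pathway 11 rose and 2 fell (median 0.60). Of 9 ligands 3 were called, all higher (33.3%, against 34.6% of all genes). Among them Ereg lay at 4.63 to 5.00 (median 4.96) in control lung and 5.50 to 10.62 (median 8.14) in the tumours. The ranges did not meet (adjusted p = 0.00347). Hbegf and Tgfa had log2 differences of 0.81 and 0.76 and were not called (adjusted p = 0.156 and 0.0555), though both were called higher without tumour 5 (adjusted p = 0.0388 and 0.0278). Btc was called (2.23-fold higher), but not in the arrays with Xist above 10 (adjusted p = 0.0604) or without tumour 2 (0.0513). Among receptors, Erbb3 and Erbb2, which signal as a pair, rose 2.1-fold and 1.59-fold (adjusted p = 9.17e-06 and 0.000585). Egfr itself was 1.38-fold lower (adjusted p = 0.0371), a call that ended in most fits that left out 1 array, for example without control lung 2 (adjusted p = 0.0695), with the Y-linked covariate (0.232) and in the arrays with Xist above 10 (0.579). Among feedback and target genes, the ERK phosphatase Dusp4 rose 8.18-fold, Spred1 3.07-fold, the ETS factor Etv4 2.88-fold and Spry2 1.93-fold. Dusp6, a phosphatase of the same family, differed by 0.33 and was not called (adjusted p = 0.154).

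Other receptor tyrosine kinases and their ligands fell more often than they rose, 12 against 4 of 26. Met, the receptor of hepatocyte growth factor, rose 3.73-fold (adjusted p = 8.93e-06). Ros1, an orphan receptor kinase of epithelium, lay at 8.61, 8.99, 9.26, 8.88 and 6.87 in tumours 1, 3, 4, 5 and 6 and at 5.19 in tumour 2, against 5.08 to 5.48 in control lung. Tumour 2 thus overlapped with the control lungs, and over all 6 tumours Ros1 was 6.68-fold higher (adjusted p = 0.00113). Kit, the stem cell factor receptor found on mast cells and some lung endothelium, lay at 10.18 to 10.66 (median 10.57) in control lung and 6.66 to 8.37 (median 7.30) in the tumours. It was 8.95-fold lower, and its ligand Kitl 7.05-fold lower, with a log2 difference of -2.82 that became -1.84 with the Y-linked covariate. The mesenchymal receptor Pdgfra was 8.43-fold lower, the fibroblast growth factor receptors Fgfr3 and Fgfr4 4.23-fold and 4.24-fold lower, and the mesenchymal ligand Fgf7 5.48-fold lower. In the IGF axis the ligand Igf1 rose 2.83-fold while Igf2 was 2.09-fold lower, the receptor Igf1r 2.2-fold lower, and the binding proteins Igfbp6 and Igfbp2, which hold IGFs away from the receptor, 15.9-fold and 11-fold lower. Irs1, an adaptor of the IGF and insulin receptors, and Igfbp3 rose 2.41-fold and 2.86-fold, but neither passed with the Y-linked covariate (adjusted p = 0.0714 and 0.221).

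Genes of 4 developmental pathways that pattern lung mesenchyme and vessels fell more often than they rose. In the Wnt pathway, in which secreted ligands act through Frizzled receptors on β-catenin, 6 of 49 genes rose and 17 fell, or 3 and 13 in the arrays with Xist above 10. Wnt2, the ligand of adult lung mesenchyme, lay at 8.11 to 9.58 (median 9.21) in control lung and 5.18 to 6.59 (median 5.52) in the tumours and was 10.9-fold lower, and the agonist Rspo1 was 7.32-fold lower (adjusted p = 3.26e-07). No tumour reached the lowest control lung in either gene. The receptor Fzd5 rose 1.96-fold and Fzd4 was 2.18-fold lower, a log2 difference of -1.12 that became -0.65 without tumours 2 and 6. Antagonists moved apart, with Dkk2 4.28-fold higher, and Wif1 and Dkk3 3.87-fold and 3.32-fold lower. The secreted antagonist Frzb was 7.54-fold higher but not called in the arrays with Xist above 10 (adjusted p = 0.132). The common Wnt target Axin2 was 2.61-fold lower (adjusted p = 3.86e-05) and the nuclear effector Lef1 1.43-fold lower.

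Bone morphogenetic proteins and TGF-β signal through paired receptors and SMAD proteins, and of 36 such genes 18 fell and 7 rose (median -0.50). Without control lung 6 the number that rose was 4, and with the Y-linked covariate 3. The ligand Bmp6 lay at 10.30 to 11.31 (median 10.72) in control lung and 5.46 to 7.32 (median 6.29) in the tumours. It was 21.1-fold lower in the tumours (adjusted p = 1.77e-06), while the activin subunit Inhbb rose 3.45-fold. Of 11 receptors 7 fell (4 in the arrays with Xist above 10), among them the endothelial receptors Acvrl1 and Eng (7.2-fold and 7.27-fold), the coreceptor Tgfbr3 (5.69-fold) and Bmpr2 (3.52-fold), and Tgfbr1 alone rose (2.56-fold). The inhibitory SMAD gene Smad6, a target of the pathway, was 10.9-fold lower. The inhibitor of differentiation genes, which BMP signals induce, did not move together, with Id2 higher as above, Id4 and Id3 7.08-fold and 2.37-fold lower, and Id1 not called (0.21 log2, adjusted p = 0.579). Bmp2 was called higher (3.39-fold), but not with the Y-linked covariate (adjusted p = 0.0529).

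Of 17 Notch pathway genes 12 fell and 1 rose (median -0.81). Notch4 of endothelium, Notch3 of mural cells and Notch1 were 5.26-fold, 2.46-fold and 2.35-fold lower, the target gene Hey1 7.02-fold lower and the endothelial ligand Dll4 2.25-fold lower. Hey1 lay at 10.46 to 10.95 (median 10.62) in control lung and 7.01 to 8.43 (median 7.94) in the tumours, with no overlap. The 1 riser was the ligand Jag1 (1.53-fold, adjusted p = 0.0338), and its call ended without tumours 2 and 6 (adjusted p = 0.2) and with the Y-linked covariate (0.113). In the Hedgehog pathway 8 of 11 genes fell and none rose, led by Hhip, a ligand-trapping protein of smooth muscle and fibroblasts, at 4.66-fold lower, and the transcription factor Gli1 was 1.45-fold lower. With the covariate the number that fell was 5.

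**Figure D2:**
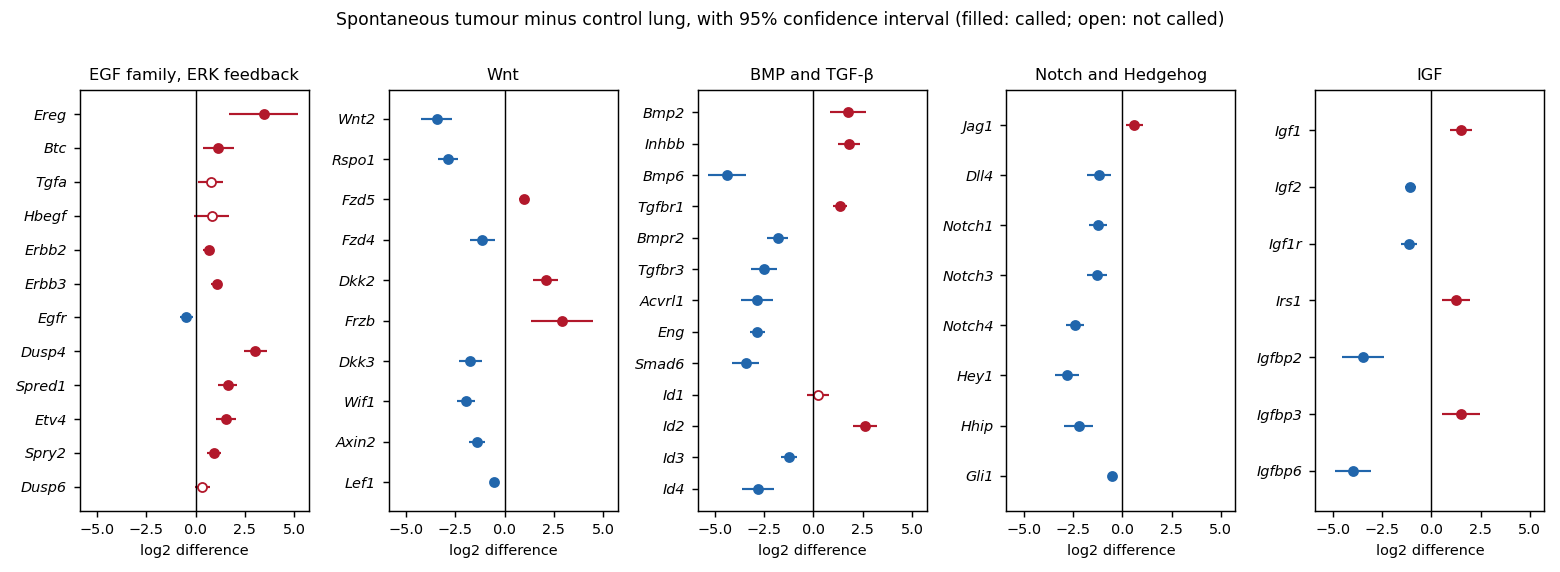
Log2 difference, spontaneous tumour minus control lung (horizontal axis), of signalling genes that the text names, in 5 panels, with the 95% confidence interval of the limma fit over 18 arrays. Filled points were called at an adjusted p under 0.05 and open points were not, so most Wnt, BMP and Notch genes lie left of 0 and most EGF pathway genes right of it.

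Mitosis and DNA replication genes rose together. Before mitosis, cyclin B and Cdk1 form the kinase that starts it, and the spindle and kinetochore proteins then divide the chromosomes. Of 26 mitosis genes 23 rose and none fell (median log2 difference 1.36), although 11 of them are among the 6064 genes with the lowest mean level. Their median difference from the control mean was 0.69 in tumour 1 and 0.93 in tumour 4, 1.38 and 1.40 in tumours 3 and 2, and 1.89 and 2.08 in tumours 5 and 6. The promoters of 3 of them are shown because 19 of 23 mitosis genes with a RefSeq window hold CCAAT in the 250 bases before the start (82.6%), against 33.8% of all 32851 windows. CCAAT is the box that the factor NF-Y binds. The shares for TTTGAA, the core of the element through which cell cycle genes are silenced in resting cells, were 34.8% and 16.0%. A listed gene counted where any of its windows held the motif, while the background counts single windows. A gene with several windows has more chances of a match, so these shares are not fully comparable. Both strands were searched, and capitals mark every CCAAT or TTTGAA on either strand (ATTGG and TTCAAA as printed). The sequences are RefSeq's on GRCm38.p6, on the minus strand, for Cdk1 at chr10:69352913-69353162, Ccnb2 at chr9:70421555-70421804 and Top2a at chr11:99024190-99024439.
Cdk1: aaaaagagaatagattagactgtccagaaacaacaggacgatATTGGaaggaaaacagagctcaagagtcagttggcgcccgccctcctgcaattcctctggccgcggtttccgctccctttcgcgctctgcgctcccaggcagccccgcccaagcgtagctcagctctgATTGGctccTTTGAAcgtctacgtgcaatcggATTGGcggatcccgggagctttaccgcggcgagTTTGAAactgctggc
Ccnb2: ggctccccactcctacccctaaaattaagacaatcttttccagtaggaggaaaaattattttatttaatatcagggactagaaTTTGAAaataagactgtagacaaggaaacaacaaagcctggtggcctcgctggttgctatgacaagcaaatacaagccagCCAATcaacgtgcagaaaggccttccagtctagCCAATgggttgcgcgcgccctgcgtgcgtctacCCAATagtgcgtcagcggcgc
Top2a: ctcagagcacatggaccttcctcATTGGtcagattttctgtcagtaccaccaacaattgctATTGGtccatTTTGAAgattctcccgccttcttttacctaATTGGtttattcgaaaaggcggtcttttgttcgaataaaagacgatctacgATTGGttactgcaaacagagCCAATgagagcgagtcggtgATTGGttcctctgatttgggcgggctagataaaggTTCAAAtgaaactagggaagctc
A match is a description of these letters and not a tested site.

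Cdk1 lay at 6.03 to 6.65 (median 6.35) in control lung and 7.37 to 8.86 (median 8.61) in the tumours. Every tumour lay above every control lung, and the rise was 4.02-fold (adjusted p = 0.00129). Its cyclin Ccnb2 rose 3.74-fold, the topoisomerase Top2a 3.9-fold, the checkpoint kinase Bub1 3.29-fold and the midzone kinesin Kif20a 3.14-fold. Of 29 replication genes 21 rose and none fell (median 0.61). The origin licensing factor Cdt1 rose 3.03-fold, the helicase subunits Mcm6 and Mcm7 2.34-fold and 2.22-fold, the clamp loader subunit Rfc3 3.13-fold and thymidine kinase Tk1 3.77-fold (adjusted p = 0.000255). The number of risers was 13 without tumours 2 and 6 and 13 in the arrays with Xist above 10. Control of G1 moved both ways, with 7 higher and 7 lower of 24 (4 lower with the Y-linked covariate). Cdk4 and its cyclin Ccnd1 rose 1.94-fold and 2-fold, E2f3 rose 2.33-fold, and another D cyclin, Ccnd3, was 2.1-fold lower. Ccnd1 lay at 10.96 to 11.39 (median 11.16) in control lung and 11.85 to 12.65 (median 12.15) in the tumours, and the tumours lay above the control lungs throughout. The CDK inhibitor Cdkn1c was 2.98-fold lower, and Cdkn1a was not called (0.23 log2, adjusted p = 0.427). Myc rose 3.28-fold, from 7.0 ± 0.44 to 8.71 ± 1.03 (mean ± SD, n = 6 each), or by 1.06 instead of 1.71 log2 without tumours 2 and 6, and of 15 ribosome biogenesis genes 8 rose and none fell, with Nop58, Npm1 and Ncl 2.44-fold, 2.17-fold and 1.9-fold higher. Of 22 apoptosis genes 3 rose and 5 fell (36.4% called, against 34.6% of all genes). The death receptor Fas was 3.02-fold lower and the BH3-only gene Bmf 2.52-fold higher. Probe sets of Bmf were called in both directions, and their mean differed by 0.62 instead of 1.34 log2.

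Imprinted genes, expressed from 1 parental copy and active in fetal growth, moved in both directions. Of 17 measured, 5 rose and 7 fell (3 and 5 with the Y-linked covariate). The noncoding RNAs Meg3 and Rian of the Dlk1 locus rose 12.3-fold and 17.4-fold over all tumours (adjusted p = 0.0107 and 0.00164), and Rian lay at 5.54 in tumour 2, inside the control range of 5.25 to 6.02, at 8.0 in tumour 6 and at 10.35 to 11.49 in the other 4. Dlk1 itself was at 6.27 and 6.5 in tumours 2 and 5 and at 10.80 to 13.43 in the other 4, against 5.90 to 6.54 in control lung (adjusted p = 0.0339). Its call ended in the fits that left out tumour 1, 3, 4 or 6 or any control lung, for example without tumour 4 (adjusted p = 0.0822). Several imprinted genes at other loci fell. Ndn was 6.81-fold lower, the growth inhibitor Grb10 2.45-fold lower and Mest 2.25-fold lower. Of the oncofetal genes Afp lay at 5.24 to 6.22 (median 5.68) in control lung and 6.23 to 10.44 (median 9.41) in the tumours, with no overlap, and Sox4 rose 3.2-fold while Sox11 was 5.34-fold lower. Hmga2 was at 11.41 and 11.09 in tumours 2 and 6 and at 5.74 to 6.56 in the other 4, near the 5.80 to 6.08 of the control lungs, and was not called (adjusted p = 0.0884), except without tumour 1 (adjusted p = 0.0416) and in the arrays with Xist above 10 (0.0234).

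Most enzymes of the steps of glycolysis rose. Glycolysis turns glucose into pyruvate, lactate dehydrogenase and the carrier Slc16a1 dispose of it as lactate, and the kinases of the PDK family keep pyruvate out of mitochondria. Of 15 enzymes of the steps 9 rose and none fell (median 1.10). Their median difference from the control mean was 0.74 in tumour 1 and 0.81, 0.82, 1.40, 1.81 and 2.07 in tumours 4, 5, 3, 2 and 6. Of 3 glucose transporters 1 rose and 1 fell. Slc2a1, found in most cells, lay at 7.85 to 8.68 (median 8.08) in control lung and 9.02 to 11.62 (median 9.80) in the tumours. It rose 3.89-fold with no overlap (adjusted p = 0.00173), or by 1.29 instead of 1.96 log2 without tumours 2 and 6. Slc2a4, which responds to insulin, was 1.35-fold lower (adjusted p = 0.00586), and Slc2a3 was not called (1.42 log2, adjusted p = 0.232). Pfkl, the liver-type phosphofructokinase, rose 3.41-fold, the aldolases Aldoc and Aldoa 6.5-fold and 1.96-fold, Pgk1 2.57-fold and Ldha 3.62-fold, and the lactate carrier Slc16a1 rose 3.63-fold. Pfkm and Pfkp, the muscle and platelet phosphofructokinases, were not called (0.03 and 0.11 log2). Of the kinases that hold back pyruvate dehydrogenase Pdk1 rose 2.53-fold and Pdk4, which is induced by fasting and fat, was 7.76-fold lower. Pkm was called higher (2.14-fold) but not without tumours 2 and 6 (adjusted p = 0.0512).

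Genes of oxygen sensing also moved. HIF proteins are destroyed in oxygen by the EGLN hydroxylases and switch on genes through the core ACGTG when oxygen is low. Hif1a rose 2.24-fold, Epas1, the HIF of endothelium, was 4.01-fold lower, and Egln3, a hydroxylase that is itself a HIF target, lay at 5.46 to 6.74 (median 5.76) in control lung and 8.90 to 12.19 (median 9.70) in the tumours with no overlap. Of 16 HIF targets 9 rose and 2 fell (median 1.08, or 0.69 without tumours 2 and 6), and their median difference from the control mean was 0.36 to 0.45 in tumours 1, 4 and 5 and 1.19 to 1.69 in tumours 2, 3 and 6. Ankrd37 rose 5.54-fold (adjusted p = 0.000161), the mitophagy protein Bnip3 2.63-fold and the hexokinase Hk2 4.41-fold. Vegfa, a HIF target that type 1 cells also make, was 1.9-fold lower. ACGTG stood in any window of 250 bases before the start for 15 of 22 listed hypoxia genes (68.2%). It stood in 16.6% of all single windows, a share with the same limit as above. The promoters of 3 risers are shown for that reason, with ACGTG on either strand (CACGT as printed) in capitals, where CACGTG counts as 2 overlapping matches and occurs once, in Bnip3. They are RefSeq's on GRCm38.p6, on the minus strand, for Bnip3 at chr7:138909507-138909756, Hk2 at chr6:82774455-82774704 and Ankrd37 at chr8:45999851-46000100.
Bnip3: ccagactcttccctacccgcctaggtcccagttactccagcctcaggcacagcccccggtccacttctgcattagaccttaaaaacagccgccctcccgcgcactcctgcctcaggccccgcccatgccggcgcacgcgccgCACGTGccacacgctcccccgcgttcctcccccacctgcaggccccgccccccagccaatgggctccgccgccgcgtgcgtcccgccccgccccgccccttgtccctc
Hk2: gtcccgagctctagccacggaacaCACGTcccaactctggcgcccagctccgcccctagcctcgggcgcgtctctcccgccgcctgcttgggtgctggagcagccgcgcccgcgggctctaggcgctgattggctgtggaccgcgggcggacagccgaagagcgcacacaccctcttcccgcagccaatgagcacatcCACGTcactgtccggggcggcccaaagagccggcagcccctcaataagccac
Ankrd37: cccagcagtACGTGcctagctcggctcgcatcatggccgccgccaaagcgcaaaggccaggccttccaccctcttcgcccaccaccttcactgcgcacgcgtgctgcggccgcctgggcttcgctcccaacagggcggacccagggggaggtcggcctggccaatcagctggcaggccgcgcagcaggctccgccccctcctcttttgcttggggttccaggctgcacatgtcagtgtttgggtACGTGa
Matches in these windows do not show that the factor binds there.

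Respiratory chain subunits rose more often than they fell. Of 88 genes of the citric acid cycle and complexes I to V 44 rose and 5 fell, with a small median of 0.27 log2. With cyclic loess normalization 26 rose and 10 fell (median 0.09), and 29 rose in the arrays with Xist above 10. Ndufb2 and Ndufa2 of complex I rose 1.72-fold and 1.61-fold, Suclg2 of the citric acid cycle 1.94-fold and Atp5c1 of the ATP synthase 1.65-fold. Of the 5 that fell 4 belong to complex IV, and 3 of these are muscle or lung forms. Cox8b and Cox7a1, the heart and muscle forms, were 4.51-fold and 3.17-fold lower, and Cox4i2, the lung form, 1.79-fold lower (adjusted p = 1.93e-05).

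**Figure D3:**
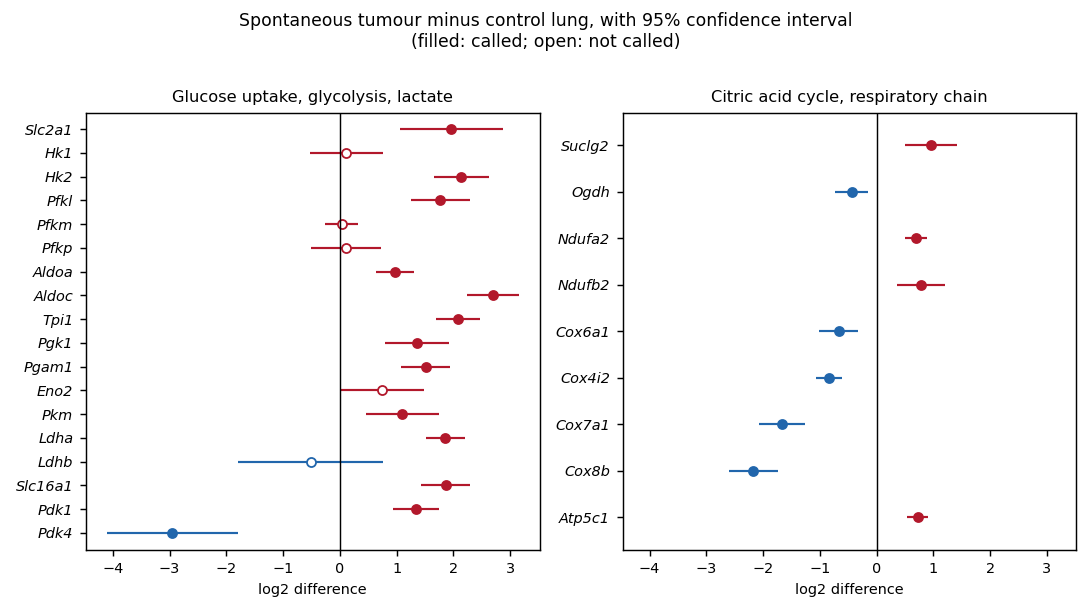
Log2 difference, spontaneous tumour minus control lung (horizontal axis), of glucose uptake, glycolysis and lactate genes in the order of the pathway and of citric acid cycle and respiratory chain genes, with 95% confidence intervals. Not all genes shown are named in the text. Filled points were called and open points were not: the called enzymes of glycolysis lie at 0.97 or more, the muscle and lung forms of complex IV below 0.

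Of 13 genes of fatty acid oxidation 2 rose and 2 fell (30.8% called, against 34.6% of all genes). Of 14 genes of fat uptake and storage 4 rose and 5 fell (64.3%), and of 13 genes of fatty acid synthesis 5 and 1 (46.2%). The fatty acid chaperone Fabp5 lay at 10.61 to 11.38 (median 10.85) in control lung and 12.58 to 14.03 (median 13.49) in the tumours. It rose 5.68-fold (adjusted p = 1.45e-07) and Fabp4, known from macrophages, fat and capillaries, 5.61-fold, while the heart form Fabp3 was 8.47-fold lower. Fatty acid synthase Fasn and the citrate lyase Acly, which start fat synthesis from sugar, rose 2.22-fold and 1.87-fold. Prostaglandins are made in sequence by cyclooxygenases and terminal synthases, carried into cells by Slco2a1 and broken down by Hpgd. Ptgs2, the inducible cyclooxygenase, was not called (-0.13 log2, adjusted p = 0.885). On the side of removal Hpgd lay at 12.43 to 12.90 (median 12.75) in control lung and 6.28 to 10.34 (median 7.34) in the tumours. No tumour reached the control lungs, and the difference was -4.88 log2, or -3.02 in the arrays with Xist above 10. Slco2a1 was 2.14-fold lower (-1.10 log2, or -0.70 with the Y-linked covariate), while the exporter Abcc4 rose 3.5-fold. The prostacyclin synthase Ptgis of vessels was 9.71-fold lower and the receptor Ptgfr 3.16-fold lower. The receptor Ptger3 was called higher (5.65-fold) but not with the Y-linked covariate (adjusted p = 0.142).

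Endothelial genes of each listed vessel type fell. Of 53 endothelial genes 40 fell and 1 rose (median -1.75), including all 13 general markers, 5 of 7 of the general capillary, 6 of 8 of the aerocyte, the large gas-exchange capillary cell, 7 of 9 of arteries, 4 of 8 of veins and 5 of 8 of lymphatics. Calcrl and Ramp2, which together form the adrenomedullin receptor, were 7.8-fold and 14.5-fold lower, and the log2 difference of Calcrl was -2.96, or -1.96 with the Y-linked covariate. Thrombomodulin (Thbd), which keeps blood from clotting on endothelium, lay at 12.30 to 12.91 (median 12.75) in control lung and 7.09 to 10.40 (median 8.85) in the tumours, far apart between the groups. The capillary phosphatase Ptprb was 9.7-fold lower and Tbx3, a factor of aerocytes and mesenchyme, 11.2-fold lower. Dkk2, placed on the artery list, was the 1 that rose. With the Y-linked covariate 3 artery and 2 lymphatic genes fell, and without control lung 4 3 lymphatic genes did.

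Of 11 ligands that act on vessels 5 fell (3 with the Y-linked covariate) and Adm2 alone rose (2.07-fold). Angpt1, which stabilises vessels through the receptor Tek, lay at 9.49 to 10.32 (median 9.99) in control lung and 5.03 to 7.39 (median 6.09) in the tumours. Tek lay at 11.49 to 11.93 (median 11.61) in control lung and 6.81 to 9.53 (median 7.87) in the tumours. Both ligand and receptor were lower in every tumour, by 14.7-fold and 13.3-fold. Vegfd was 10.3-fold lower and the VEGF receptor Kdr 6.88-fold lower, whereas Flt1, the decoy VEGF receptor, was not called (-0.32 log2, adjusted p = 0.244) except without tumours 2 and 6 (adjusted p = 0.0432), with array weights (0.0302) and with the mean of its probe sets (0.0264). Semaphorins, netrins and slits guide axons and vessels, and of 18 such genes and receptors 13 fell and none rose (median -1.46, or -0.94 with the Y-linked covariate). Sema3g of arteries was 15.2-fold lower, and Ntn1 and Ntn4 were 6.12-fold and 5.74-fold lower.

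Of 27 transcription factors of mesenchyme 21 fell, each with no overlap, and none rose (median -1.14). Foxf1, which is required for lung vessels and mesenchyme, lay at 11.27 to 11.73 (median 11.63) in control lung and 6.95 to 8.93 (median 7.47) in the tumours. The noncoding RNA Fendrr, transcribed from its neighbourhood, lay at 11.38 to 11.47 (median 11.42) in control lung and 6.63 to 8.43 (median 7.23) in the tumours, so both were far below the control lungs in every tumour (adjusted p = 1.43e-05 and 5.68e-07). The T-box factors Tbx2 and Tbx4 were 7.89-fold and 5.29-fold lower, Meis1 8.6-fold, and the Hox genes Hoxa5 and Hoxb5, which pattern the lung along the body axis, 7.15-fold and 5.73-fold lower. Twist1, a factor linked with epithelial-mesenchymal transition, was not called (0.07 log2, adjusted p = 0.516), and Zeb1 was 4.53-fold lower.

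Matrix genes moved in both directions, with 11 of 60 higher and 23 lower. With the Y-linked covariate 15 were lower, and without tumours 2 and 6 7 were higher. In the basement membrane the epithelial laminin chain Lamb3 lay at 8.52 to 9.10 (median 8.89) in control lung and 11.02 to 11.90 (median 11.52) in the tumours, and Col18a1 and Col15a1 rose 4.26-fold and 4.03-fold. Lama2, the laminin chain of muscle and nerve, was 4.53-fold lower. Of 7 fibrillar collagens 4 rose and none fell, with Col5a2 2.17-fold higher, and 2 rose without tumours 2 and 6. Of 11 elastic fibre genes 5 fell (3 in the arrays with Xist above 10) and none rose, with Mfap4 21.1-fold and Ltbp4 7.93-fold lower. Col13a1, a collagen of alveolar fibroblasts, was 10.4-fold lower. Among proteases, the macrophage elastase Mmp12 lay at 4.90 to 6.43 (median 5.18) in control lung and 9.39 to 11.83 (median 10.21) in the tumours, and the membrane protease Mmp14 rose 2.1-fold (1.07 log2, or 0.62 without tumours 2 and 6). The ranges of Mmp12 were far apart. Of their inhibitors Timp1 rose 3.66-fold while Timp3 and the membrane inhibitor Reck were 3.82-fold and 8.75-fold lower. Of 12 genes of lysosomal cathepsins and their inhibitor Cst3 8 rose, among them Ctsk and Ctsc (4.24-fold and 2.7-fold), and Cst3 alone fell (1.7-fold).

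**Figure D4:**
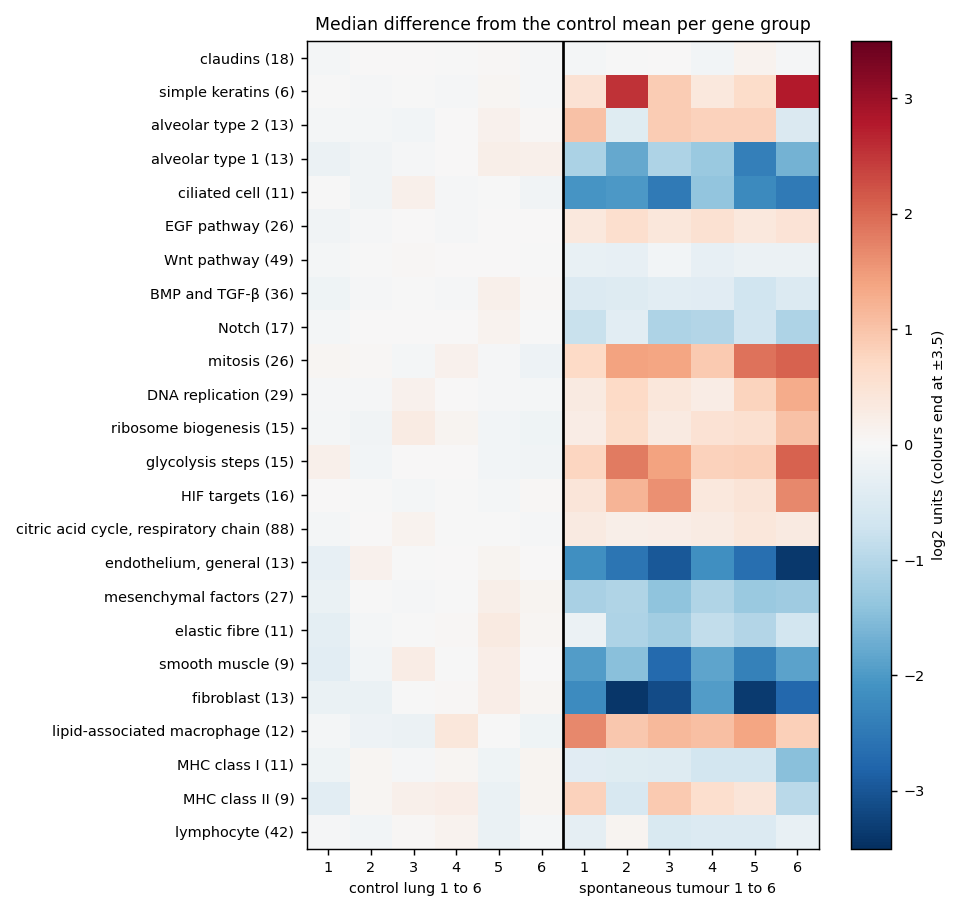
Median difference from the control mean, in log2 units (colour), over the measured members of 24 gene groups (rows) in each of the 12 arrays (columns, control lungs left, spontaneous tumours right), with the number of members in brackets. Vessel, mesenchymal, ciliated and muscle groups are low in all 6 tumours, and the type 2, MHC class II and simple keratin groups differ between tumours 2 and 6 and the other 4.

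Of 12 genes of the lipid-associated macrophage, a foam-like tissue macrophage, 9 rose and none fell (median 1.31), and the number was the same with the Y-linked covariate and in the arrays with Xist above 10. Gpnmb lay at 7.50 to 9.48 (median 8.06) in control lung and 9.61 to 11.46 (median 10.31) in the tumours. Every tumour lay above the control lungs, and the receptor Trem2 and the lectin Lgals3 rose 2.38-fold and 2.59-fold. Of 13 genes of alternatively activated or tissue-resident macrophages 4 rose and 5 fell, or 2 and 1 in the arrays with Xist above 10. Arg1, the arginase of such macrophages, lay at 5.34 to 7.83 (median 5.54) in control lung and 9.52 to 12.51 (median 11.12) in the tumours, with no overlap, and Mrc1 rose 2.21-fold, while Lyve1, which marks perivascular macrophages and lymphatic endothelium, was 6.04-fold lower. Alveolar macrophage genes had 6 risers and no fallers among 10, and monocyte genes 1 and 3 among 10, or 1 and 1 in the arrays with Xist above 10. The monocyte and alveolar macrophage receptor Cd14 rose 3.93-fold. Ace, which is abundant on lung capillaries and on patrolling monocytes, was 7.04-fold lower. The macrophage growth factors split, with Csf1 2.39-fold lower and Il34, which acts on the same receptor, 2.27-fold higher (1.18 log2, or 0.74 in the arrays with Xist above 10).

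Complement genes moved in both directions. C1qa, C1qb and C1qc, the macrophage-made chains of C1q, rose 2.35-fold, 2.62-fold and 2.37-fold, and the receptor C3ar1 rose 3.77-fold. The C1 inhibitor Serping1, made by stromal cells, was 4.35-fold lower (adjusted p = 0.00044). Of 31 chemokine ligands 8 rose and 4 fell (38.7% called, against 34.6% of all genes). The neutrophil attractants Cxcl3 and Cxcl5 were 15-fold and 6.19-fold higher and Ccl6 3.08-fold higher, while Cxcl12, which is made by stroma and vessels, was 7.27-fold lower and the platelet chemokine Ppbp 17.3-fold lower. Cxcl5 lay at 4.24 to 5.19 (median 4.56) in control lung and 4.80 to 10.73 (median 7.04) in the tumours, so the groups overlapped, and the log2 difference was 2.63, or 1.74 without tumours 2 and 6. The scavenger receptor Ackr2, which removes inflammatory chemokines, was 5.92-fold lower. Of 10 neutrophil genes Lcn2, which epithelium also makes, was the 1 called (6.74-fold higher), and S100a8 differed by -1.27 log2 (adjusted p = 0.269). The median difference of the neutrophil genes from the control mean was 3.48 in control lung 1 and -1.26 to 0.10 in the other control lungs. Their median log2 difference between the groups was -1.03, or -0.375 without control lung 1. Of 42 genes of interleukins, related cytokines and their receptors 5 rose and 8 fell (31.0% called, against 34.6% of all genes). The alarmin Il33 rose 2.79-fold, the death ligand Tnfsf10 was 9.03-fold lower, and the receptors Il6st and Lifr, shared by cytokines of the interleukin-6 family, were 3.48-fold and 3.51-fold lower.

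Of 11 class I antigen presentation genes 6 fell and none rose, or 3 with the Y-linked covariate. The peptide transporter Tap2 was 1.74-fold lower (adjusted p = 0.00515). Of 9 class II genes none rose over all 6 tumours and H2-Ob alone fell (2.2-fold, adjusted p = 0.0255, or 0.199 with the Y-linked covariate). Of the class II genes 6 rose when tumours 2 and 6 were left out. The invariant chain Cd74 lay at 12.69 and 12.52 in tumours 2 and 6, below all control lungs (13.12 to 13.66), and at 13.77 to 14.12 in the other 4, above all of them. The checkpoint protein Vsir and the costimulatory receptor Cd40 were 3.15-fold and 1.93-fold lower. Cd274, which encodes the checkpoint ligand PD-L1, was not called (0.37 log2, 95% interval -0.23 to 0.97). Of 42 lymphocyte genes 11 fell and 2 rose (31.0% called, against 34.6% of all genes). The number that fell ran from 5 without tumour 3 to 16 without tumour 2 and was 4 with the covariate. Of 11 T or NK cell identity genes 5 fell, or 10 without tumour 2 and 2 with the covariate. Their median difference from the control mean was 0.55 in tumour 2 and -1.17 to -0.72 in the other tumours. Gzma, a granzyme of NK and T cells, was 6.03-fold lower and the NK receptor Ncr1 1.82-fold lower, and both kept the call in all alternatives run. The checkpoint receptor Havcr2, also found on macrophages, rose 1.93-fold.

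Of 14 nerve genes 8 fell and none rose, led by the tubulin-binding Mapt (29.4-fold) and Stmn2 (9.25-fold), while 8 neuroendocrine genes held no called member and Chga differed by 0.02 log2 (95% interval -0.21 to 0.24). Heart muscle genes, which the sleeves of mouse pulmonary veins express, fell in 11 of 12, and Pln, a regulator of the calcium pump, lay at 8.75 to 9.51 (median 9.11) in control lung and 5.99 to 6.43 (median 6.10) in the tumours. Such markers had a median difference of -3.73 log2, those of smooth muscle -2.13, and those of fibroblasts -3.01 (-1.81 with the Y-linked covariate). Their part in the other falls was not tested. Of 36 transport genes 13 fell and 7 rose, or 8 and 4 with the Y-linked covariate. The epithelial sodium channel subunits Scnn1g and Scnn1b were 5.85-fold and 4.68-fold lower, the water channel Aqp1 of capillaries 5-fold lower, and the chloride-loading transporter Slc12a2 rose 2.91-fold. Of 23 immediate early and flow-responsive genes 2 rose and 6 fell (34.8% called, against 34.6% of all genes). Klf2 of endothelium was 4.95-fold lower, Jun 2.97-fold and Dusp1 3.41-fold, while Egr2 rose 2.86-fold and Fos and Egr1 were not called (-0.63 and -0.06 log2). Of clotting genes F7 rose 3.23-fold and Vwf was 5.53-fold lower. The circadian repressor Bhlhe40, which is also induced by low oxygen, lay at 8.57 to 9.33 (median 9.13) in control lung and 11.12 to 12.29 (median 11.66) in the tumours with no overlap, and the output factor Tef was 2.45-fold lower.

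The 20 genes with the largest SD among the 6 tumours, the dimmest genes left out, were chosen for their spread, and the spread was not tested. Of those described here, the limma fit called Bpifa1 (6.09 log2, adjusted p = 0.00143), Gkn2 (3.38, 0.00418) and Bex1 (3.35, 0.038) higher than in control lung. The others described here were not called. Values of these 3 calls in the alternative fits are not given here. Apob, the lipoprotein of liver and gut, lay at 11.76 and 10.98 in tumours 5 and 6 and at 4.96 to 5.90 in the other 4 (control lung 4.60 to 6.42). Msln, of mesothelium, was at 10.96 and 12.74 in tumours 2 and 6 and at 5.60 to 6.20 in the other 4. Its control range was 6.22 to 8.26. The kinase Prkg2 was at 11.86 and 10.85 in the same tumours and at 5.87 to 6.64 in the other 4. Its control range was 8.26 to 9.05, so in both genes those 4 tumours lay below every control lung. Tff3, a goblet cell peptide, was at 10.40, 10.94 and 11.79 in tumours 6, 4 and 5 and at 5.87 to 6.09 in tumours 1, 2 and 3. The gastric peptide Gkn2 ran from 5.82 in tumour 1 to 13.31 in tumour 4. Gzme, a granzyme, was at 11.79, 9.08 and 7.94 in tumours 2, 4 and 6 and at 4.62 to 5.54 in tumours 1, 3 and 5, with control lungs at 4.34 to 5.42. Bpifa1, an airway defence protein, ran from 8.57 and 9.30 in tumours 2 and 6 to 14.72 in tumour 5, and was at 4.66 to 8.99 in control lung. Bex1 and Bex4, small X-linked proteins, were low in tumour 2 (5.10 and 5.09) and at 8.59 to 11.82 and 8.30 to 11.61 in the other 5. The control lungs were at 5.41 to 7.29 in Bex1 and at 6.72 to 8.38 in Bex4. Aox3, an aldehyde oxidase, lay below the control range (11.01 to 11.29) in tumours 2 and 6, at 7.08 and 7.72, and lay at 11.17 to 12.66 in the other 4.

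**Figure D5:**
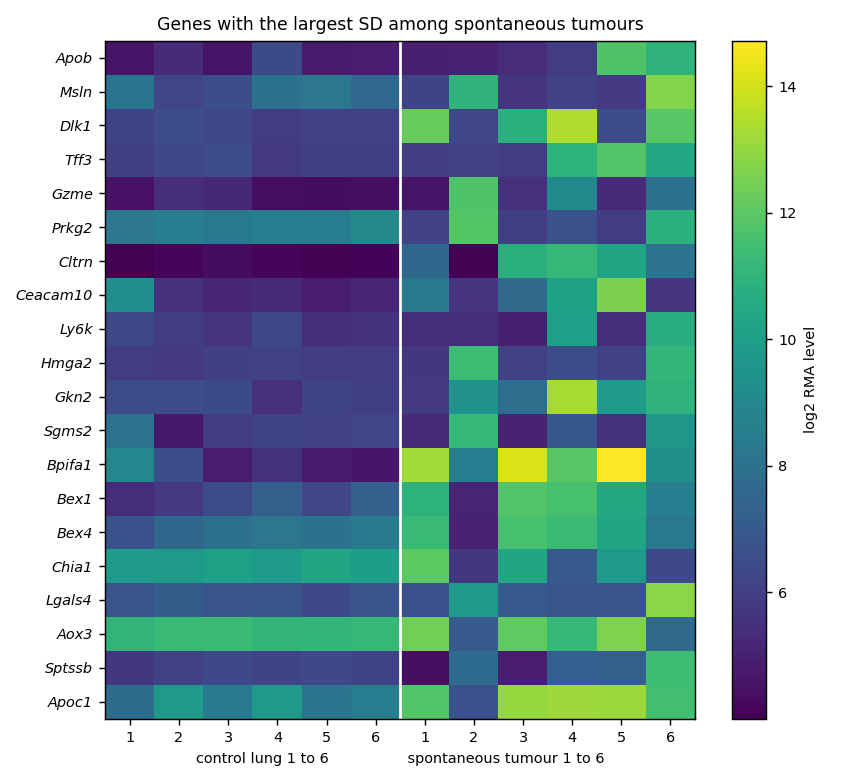
Log2 RMA level (colour) of the 20 genes with the largest SD among the 6 spontaneous tumours, leaving out dim genes, in 6 control lungs (left) and 6 spontaneous tumours (right). Hmga2, Msln, Prkg2 and Sgms2 are high in tumours 2 and 6, and Apob in tumours 5 and 6.

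Set against the 6 tumours of cobalt-exposed mice, the spontaneous tumours differed in 15 of 18193 genes (0.0824%), 8 higher and 7 lower in cobalt tumours, and 2105 genes had an unadjusted p under 0.05. By an exact permutation test per gene 1633 had an unadjusted p under 0.05. Its smallest possible p of 0.00216 can pass the adjustment only where very many genes reach it at once, so that no gene passed there says nothing about these 15. Both tumour groups are compared with the same control lungs, so their differences from control are not independent of each other. Gkn2 was at 5.82 to 13.31 in spontaneous and 13.20 to 14.99 in cobalt tumours (log2 difference 4.64, adjusted p = 0.038). Liph, a lipase that makes lysophosphatidic acid, was at 9.10 to 9.70 in spontaneous tumours, like the 9.26 to 9.58 of control lung, and at 10.21 to 10.82 in cobalt tumours (1.07, adjusted p = 0.000836). The amino acid transporter Slc1a4 was lower in spontaneous tumours by 1.57 and the ciliary gene Cfap52 by 2.30. Tinag, of tubular basement membranes, and the collagen Col6a3 were higher in spontaneous tumours, with cobalt minus spontaneous differences of -1.92 and -0.80 (adjusted p = 0.038 and 0.0288). Without cobalt tumour 6, whose mean correlation with the control lungs was 0.971 against 0.910 to 0.936 for the other 5, 36 genes were higher and 46 lower in cobalt tumours, and without cobalt tumour 1 the numbers were 1 and 0.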

How the data were processed

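Total RNA of 100 ng per sample was amplified and hybridised to Affymetrix Mouse430_2 arrays, per the labels' protocols. The deposited values are log2 expression values made by the authors with RMA, per the submitters' processing notes, which background-corrects, quantile-normalizes and summarises the probes of each probe set; RMA makes array distributions alike, so shifts shared by all genes cannot be seen. Arrays give no read depth, and 6 arrays per group limit the precision.

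Of 45101 probe sets 34945 carried 1 gene symbol in the platform annotation, 932 several and 9160 none. Each of 18193 genes is represented by its probe set with the highest mean over 18 arrays. The 3 groups were fitted in 1 model (limma 3.58.1, R 4.3.3, lmFit and eBayes, Benjamini-Hochberg). It was run on simulated data for spontaneous tumour against control lung, with 200 of 18193 genes changed. It recovered 84% of genes changed by 1 log2 and 95% of those changed by 2, and 13 of its 192 calls were false. The exact permutation test called 0 genes there. In the real data 34.6% of genes were called, so the simulated rates may not hold for them. Members and gene lists were chosen with earlier results of these data known. Of 1454 distinct listed genes 1338 were measured, and the others were not analysed here. Genes were named for their rank in the comparison, for their spread among tumours, or for a large difference between the tumour groups. List members were named as up to the 6 called genes of a role that rose or fell most, or as members not called. Aldoa, Pgk1, Pkm, Hoxb5, Tbx4, Zeb1, Kif20a and Trem2 fall outside these rules and were named after their values were seen. Probe sets of 1 gene were called in opposite directions in 102 of 9010 genes with several. The submitters compared these groups with ORIOGEN, which was not used here.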

Additional observations from a re-analysis of the deposited data

Results flagged for a closer look

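For each named gene the array farthest from the others of its group was compared with the range of the group, by a rule that chance alone meets in about 1 of 20 groups. The rule was applied to 286 named genes in both groups, so many of the arrays listed below can meet it by chance. The level of such an array is given with the range of the other 5 in brackets, all in log2 RMA units. Control lung 1 lay above the other 5 in Ccnd3 at 11.13 (10.41 to 10.61), Cd14 at 10.99 (9.17 to 9.66), Lcn2 at 13.35 (8.95 to 10.09) and Pkm at 11.57 (10.49 to 10.84). Control lung 1 lay below the other 5 in Adm2 at 5.83 (6.15 to 6.32), Axin2 at 8.27 (8.71 to 8.97), Fgfr3 at 10.69 (11.003 to 11.19), Foxf1 at 11.27 (11.59 to 11.73), Il33 at 9.27 (9.66 to 9.84), Notch3 at 9.35 (9.91 to 10.10), Notch4 at 9.92 (10.40 to 10.59), Scube2 at 9.90 (10.46 to 10.73) and Tbx3 at 8.85 (9.35 to 9.64). Control lung 2 lay above the other 5 in Cox8b at 9.12 (7.71 to 7.98), Egr1 at 10.41 (8.94 to 9.45), Fabp4 at 10.47 (7.20 to 8.33) and Kif20a at 5.37 (5.00 to 5.13). Control lung 3 lay above the other 5 in Cdk4 at 9.68 (9.24 to 9.39) and Foxj1 at 9.19 (8.49 to 8.75). Control lung 3 lay below the other 5 in Il6st at 11.52 (11.67 to 11.73) and Kit at 10.18 (10.52 to 10.66). Control lung 4 lay above the other 5 in Ctsk at 9.81 (7.89 to 8.34), Egr2 at 6.70 (6.15 to 6.35), Gpnmb at 9.48 (7.50 to 8.18) and Top2a at 7.37 (6.83 to 7.01). Control lung 4 lay below the other 5 in Kdr at 11.21 (11.50 to 11.65). Spontaneous tumour 1 lay above the other 5 in Igf1 at 9.70 (7.97 to 8.61). Spontaneous tumour 1 lay below the other 5 in Cdk4 at 9.79 (10.34 to 10.51). Spontaneous tumour 2 lay below the other 5 in Id2 at 11.15 (12.44 to 13.06) and Muc20 at 7.65 (9.08 to 9.85). Spontaneous tumour 4 lay above the other 5 in Rspo1 at 5.26 (4.65 to 4.85) and Smad6 at 8.96 (7.69 to 8.11). Spontaneous tumour 5 lay below the other 5 in Dusp1 at 10.22 (10.76 to 11.07). Spontaneous tumour 6 lay above the other 5 in Egfr at 8.64 (7.31 to 7.74).

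The difference between the tumour groups was tested over all genes in the limma fit, and 6 of the genes called there are named in the text. Genes with large differences in that contrast were named for it, so these calls are not a separate test. The cobalt minus spontaneous differences were Cfap52 2.30, Col6a3 -0.80, Gkn2 4.64, Liph 1.07, Slc1a4 1.57 and Tinag -1.92 on the log2 scale.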

How the results depend on the processing

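Of 252 called genes named in the text 234 kept the direction and the call in all alternatives that gave a value. With probe sets averaged per gene, 38 of the 252 had differences over 1.5 times smaller. 1 named call reversed. Xist, which marks sex, differed by 0.16 log2, against -3.94 over all arrays, when arrays with Xist under 10 were left out. The counts of spontaneous tumour against control lung (2975 higher, 3320 lower) stayed within 1.5 times, including leaving out 1 of the 12 arrays (2614 to 2919 higher, 2976 to 3256 lower) or cobalt tumour 6 (3073 and 3444), the Y-linked covariate (2116 and 2526) and arrays with Xist above 10 (2017 and 2288), except over all probe sets (5839 and 5743) and with at least 2-fold as well (755 and 1226). In loess-normalized data 41.1% of the calls were higher, against 47.3%.

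The cobalt against spontaneous tumour counts (8 higher, 7 lower) moved more. They were 1 and 0 with only the 12 arrays and with the replicate block, 0 and 0 in arrays with Xist above 10, 5 and 1 with at least 2-fold, 23 and 42 without spontaneous tumours 2 and 6, and 36 and 46 without cobalt tumour 6. They were also 0 and 0 by the exact permutation test, whose smallest possible p (0.00216) cannot pass for so few genes. The lower count was 14 without the 6064 dimmest genes, 12 with the probe sets averaged or with array weights and 18 with the Y-linked covariate, and the higher count 13 over all probe sets. Leaving out 1 array gave 1 to 36 higher and 0 to 46 lower. The cause of these moves was not tested. With the replicate number as a block 2736 genes were higher and 3062 lower in spontaneous tumours than in control lung; same-numbered arrays did not deviate together (correlations of -0.05 to 0.05 for control lung with spontaneous tumour and -0.34 to 0.19 for spontaneous with cobalt tumour), so the numbers name samples only. No threshold on signal over background was applied to the results, other than in the alternative without the dimmest genes.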
